A study of Mus musculus with 6 samples.

Results

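The nuclear-encoded genes of the mitochondrial respiratory chain were taken by name from the gene table: protein-coding rows whose symbol starts with Nduf, Uqcr, Atp5 or Cox and a digit, together with Sdha, Sdhb, Sdhc, Sdhd and Cycs. The rule found 104 of the 54532 genes, of which 36 belong to complex I, 4 to complex II, 8 to complex III, 20 to complex IV and 17 to complex V. A further 8 encode complex I assembly factors and 9 complex IV assembly factors, 1 is cytochrome c and 1 is Atp5s, a factor related to complex V. The rule itself uses names alone, and it was set with earlier results of these data known. Another 14 rows carry such a name without being protein-coding, 13 of them as processed pseudogenes, and were left out.

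The libraries were made from mouse peritoneal macrophages drawn out by thioglycollate, harvested at 4 days, purified by adherence for 6 h and kept in RPMI-1640 with 10% serum. There were 3 libraries labelled SAHH-KO and 3 control libraries, whose genotype is given as WT and whose title says shControl, so the labels name both a knockout and a knockdown. The cells of all 6 libraries had been treated for 8 h with 2 ng/mL of interferon-γ plus 10 ng/mL of lipopolysaccharide, and unstimulated cells were not analysed here. The labels give no strain, age, promoter or Cre driver, and do not say whether replicates came from separate animals or cultures, so p-values measure the spread between these libraries, which may be technical.

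Complex I and complex II pass electrons from NADH and from succinate to ubiquinone, complex III passes them on to cytochrome c, and complex IV hands them to oxygen. The proton gradient built on the way drives complex V, the ATP synthase. In macrophages activated with lipopolysaccharide and interferon-γ the chain is known to be turned away from ATP production, with glycolysis supplying ATP and succinate oxidation by complex II feeding the formation of reactive oxygen species.

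Ahcy, which encodes S-adenosylhomocysteine hydrolase, had 5.51, 5.50 and 6.23 FPKM (fragments per kilobase, relative to library size) in the SAHH-KO libraries, against 25.8, 22.6 and 24.4 FPKM in the control libraries. The labels and the targeted gene go together in all 6 libraries, with a log2 fold change of -1.90 ± 0.0873 (SE; limma, adjusted p = 1.44e-06). Gm4737, a near-copy of Ahcy with which it can share reads, had 15.7, 20.7 and 17.5 FPKM in SAHH-KO, against 67.0, 63.4 and 68.3 FPKM in control. Assigned reads numbered 15856261 to 17748745 in SAHH-KO and 15540442 to 16676534 in control, and 3 reads on a gene of 1 kb were worth 0.168 to 0.197 FPKM. The summed level of 8 macrophage markers was 9320 to 10586 FPKM in SAHH-KO and 8344 to 8645 FPKM in control. Lyz2 and Cd14, at means of 6616 and 2378 FPKM in SAHH-KO, made up most of this sum. Adgre1, Cd14, Itgam and Fcgr1 were higher in SAHH-KO, and Mertk was near 0 in both groups. Csf1r went the other way, with 86.0 to 98.5 FPKM in SAHH-KO and 99.5 to 115 FPKM in control (log2 fold change -0.23). Csf1r, Lyz2 and Cd68 did not pass the threshold, with adjusted p of 0.0568, 0.0670 and 0.677. Of the neutrophil markers, S100a8 averaged 0.189 FPKM in SAHH-KO and 4.63 FPKM in control, while S100a9, Ngp, Mpo, Ly6g and Retnlg were listed at 0. The summed levels of 8 neutrophil markers were 0.503 to 0.820 FPKM in SAHH-KO and 4.76 to 5.66 FPKM in control, those of 6 B cell markers were 0.253 to 0.465 FPKM in SAHH-KO and 0.259 to 0.283 FPKM in control, and those of T and NK, mast cell and eosinophil, and mesothelial, fibroblast and endothelial markers were at most 0.0581 FPKM. The part of these shifts in the results below was not tested.

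Most respiratory chain genes differed little between SAHH-KO and control macrophages, and the few that moved strongly did so in both directions. Cox6a2, the muscle isoform of a complex IV subunit, was 10.8-fold higher in SAHH-KO. Of the complex IV assembly factors taken by the name rule, Cox17, Cox18 and Cox15 were 1.59- to 3.06-fold higher. Complex IV assembly factors with other names were called in both directions. Uqcrq of complex III was 1.86-fold higher. Sdhd of complex II was 1.90-fold lower, and the assembly factor Ndufaf2 of complex I was 2.56-fold lower. Folds for single genes are ratios of group means in FPKM, while log2 fold changes, given with their SE, are on the log2(FPKM + 1) scale, which understates the change of genes with low levels.

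Of the 104 genes, 95 passed the filter of at least 1 FPKM in at least 3 of the 6 libraries and were tested. Of these 95, 16 were higher and 14 lower in SAHH-KO at an adjusted p under 0.05, or 31.6%, while 53.3% of all 10362 tested genes were called, 26.4% as higher and 26.8% as lower. Without SAHH-KO replicate 1, 10 members were higher and 12 lower. The share of members called was below that of all tested genes. At least a 1.5-fold difference in mean FPKM was reached by 11 called members, or 11.6%, against 31.7% of all tested genes. The SAHH-KO and control libraries did not overlap for 47 members, or 49.5%, against 62.3% of all tested genes. The 95% interval of the log2 fold change lay wholly between -0.5 and 0.5 for 61 members, or 64.2%, against 40.0% of all tested genes. The median log2 fold change was -0.01 over the members and -0.01 over all tested genes, and the median of its absolute size was 0.19 over the members and 0.32 over all tested genes. In bulk RNA, fewer cells of a type and less RNA per cell cannot be told apart.

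**Figure D1:**
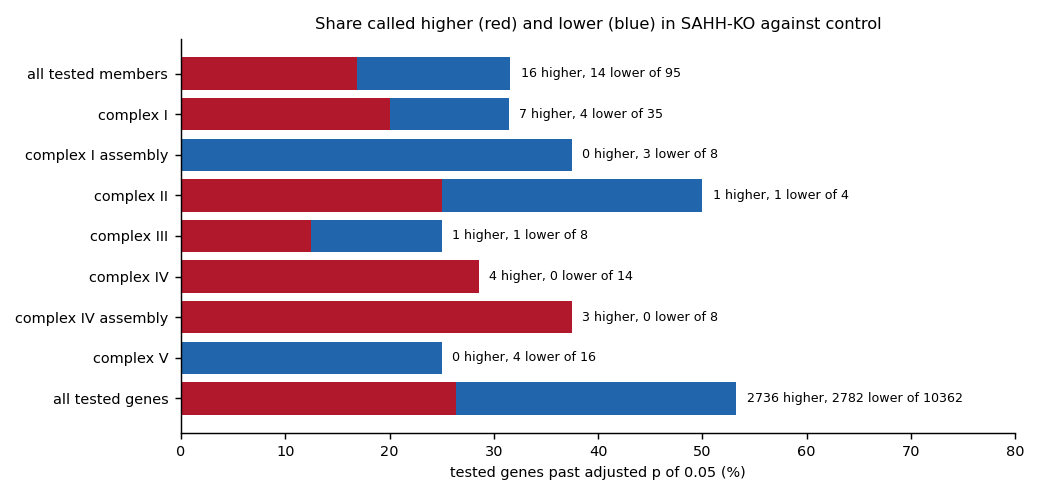
Bars give the share, in percent, of tested genes past an adjusted p of 0.05 in each group of respiratory chain genes and in all tested genes, with the part higher in SAHH-KO in red and the part lower in blue. For the 95 tested members the bar holds 16 higher and 14 lower, and each drawn group of respiratory chain genes lies below the bar of all 10362 tested genes.

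The balance between higher and lower calls rests on how the libraries are scaled. The authors' library sizes were 0.937 to 0.960 times the assigned reads in SAHH-KO and 1.05 to 1.07 times in control. Scaled to assigned reads instead, the log2 fold change of the median tested gene moved by -0.13, and 9 members were higher and 29 lower. Scaled to a fixed sum per library (TPM), it moved by -0.15, and 9 members were higher and 28 lower. Among all tested genes TPM called 56.9%, with 19.4% higher and 37.6% lower, and assigned reads called 57.3%, with 19.6% higher and 37.7% lower, so that the split moved with the scaling for all genes as well. The members took 0.894 to 0.912% of assigned reads in SAHH-KO and 0.980 to 1.05% in control, whereas their summed level was 5256 ± 42.0 FPKM in SAHH-KO and 5114 ± 210 FPKM in control (SD, n = 3 each). Changes below are relative to the authors' scaling.

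By complex, and under the authors' scaling, the subunits of complex I summed to 1349 ± 20.5 FPKM in SAHH-KO and 1316 ± 74.1 FPKM in control. Complex III summed to 542 ± 4.34 FPKM in SAHH-KO and 521 ± 27.0 FPKM in control, and for both complexes the libraries of the groups overlapped. The sum for complex II was 223 ± 4.36 FPKM in SAHH-KO and 265 ± 1.72 FPKM in control, a ratio of 0.843. Complex V summed to 1272 ± 19.4 FPKM in SAHH-KO and 1372 ± 23.3 FPKM in control, a ratio of 0.928. Complex IV went the other way, with 1658 ± 26.1 FPKM in SAHH-KO and 1432 ± 84.9 FPKM in control, a ratio of 1.16. The last 3 sums did not overlap between the groups, and each leans on a few genes described below. All these sums rest on the authors' scaling. Scaled to assigned reads instead, the complex IV sums of the groups overlapped. For complex I every SAHH-KO sum then lay below every control sum.

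**Figure D2:**
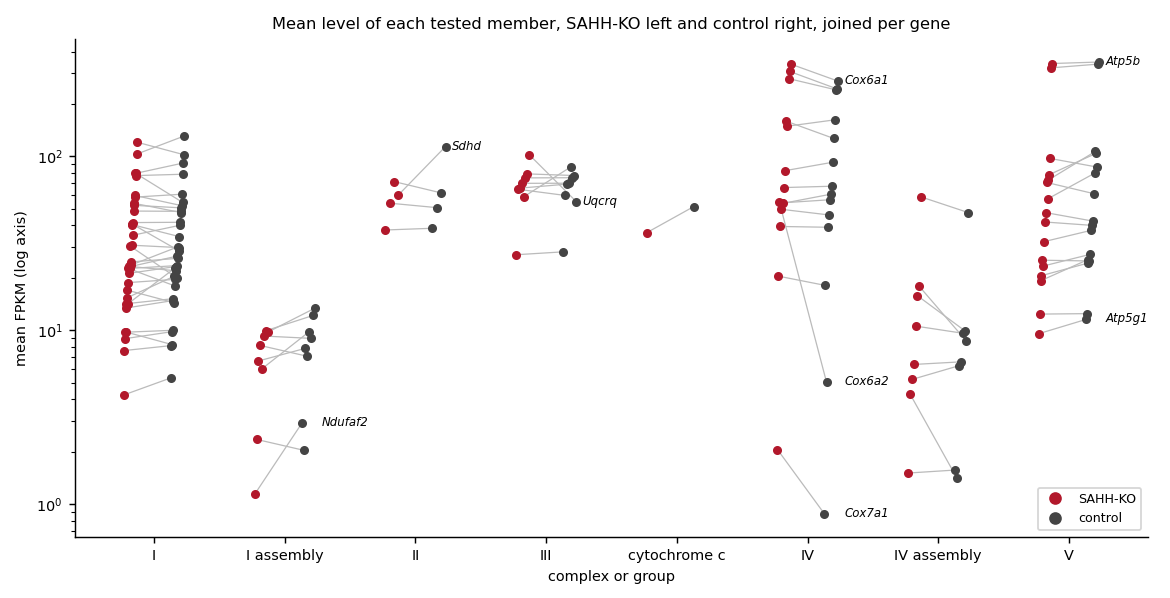
Each pair of joined points is 1 tested gene, with its mean FPKM on a log axis in SAHH-KO (red, left) and in control (grey, right), placed by complex or assembly group for 93 of the 95 tested genes. Most lines are nearly level, while those of Cox6a2, Cox17, Ndufaf2, Cox7a1, Cox18, Sdhd and Uqcrq slope clearly. Levels run from 0.877 FPKM for Cox7a1 in control to 348 FPKM for Atp5b in control.

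Complex I had 35 of 36 subunit genes tested, and 7 were higher and 4 lower in SAHH-KO; the 11 calls became 7 when any 1 SAHH-KO replicate or control replicate 3 was left out. Of the core subunits, which carry the flavin and iron-sulphur centres and the ubiquinone site, Ndufs8, an iron-sulphur subunit, had 102, 103 and 104 FPKM in SAHH-KO, against 133, 124 and 135 FPKM in control. The SAHH-KO libraries lay within a few FPKM of each other and below every control library (log2 fold change -0.34 ± 0.0709, adjusted p = 0.00419).

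The accessory subunits of complex I, which surround the core and are needed to assemble it, held 6 of the higher and 3 of the lower calls among 28 tested. Ndufa7 had 31.7, 30.0 and 29.5 FPKM in SAHH-KO, against 20.3, 19.3 and 20.1 FPKM in control. The groups were well apart, at 1.53-fold (0.59 ± 0.0734, adjusted p = 0.000276). Ndufa1 had 76.5, 83.6 and 79.7 FPKM in SAHH-KO, against 59.9, 49.7 and 53.5 FPKM in control (0.55 ± 0.0887, adjusted p = 0.00108). Ndufa13, known also as GRIM-19, had 43.1, 39.2 and 40.2 FPKM in SAHH-KO, against 29.7, 24.3 and 31.8 FPKM in control (0.51 ± 0.107, adjusted p = 0.00449). For both, every SAHH-KO library was above every control library. For Ndufa6, a small subunit of the LYR family, the SAHH-KO libraries had 24.8, 21.6 and 21.6 FPKM and the control libraries 16.4, 17.9 and 19.5 FPKM (0.32 ± 0.0948, adjusted p = 0.0199). Its call was lost under TPM, under assigned-read scaling and without SAHH-KO replicate 1. Ndufs4 and Ndufa2 passed with adjusted p of 0.0439 and 0.0497 and lost the call in 9 and 11 of 14 alternatives.

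On the lower side, Ndufa5 had 15.1, 14.2 and 13.0 FPKM in SAHH-KO, against 18.2, 23.3 and 26.6 FPKM in control. The groups did not overlap although the control libraries were widely spread (-0.63 ± 0.133, adjusted p = 0.00422). Ndufc1 had 14.9, 16.2 and 15.0 FPKM in SAHH-KO, against 20.1, 19.0 and 22.2 FPKM in control (-0.39 ± 0.0859, adjusted p = 0.00568). Ndufa8 averaged 79.9 ± 0.948 FPKM in SAHH-KO and 91.5 ± 3.76 FPKM in control (-0.19 ± 0.0702, adjusted p = 0.0469), and lost the call in 7 of 14 alternatives. Ndufa12, singled out after its values were seen, had 16.7, 5.23 and 4.89 FPKM in SAHH-KO, against 7.95, 10.8 and 10.7 FPKM in control. SAHH-KO replicate 1 was far above its group, and the gene was not called with it (-0.31 ± 0.377, adjusted p = 0.520) but was lower without it (-0.82, adjusted p = 0.00323). Among the 24 tested subunits that were not called, Ndufa9 averaged 48.4 ± 2.25 FPKM in SAHH-KO and 48.3 ± 0.640 FPKM in control (95% interval of the log2 fold change -0.16 to 0.17). Ndufb2 stayed below the filter, at 0.759 FPKM in SAHH-KO and 0.614 FPKM in control.

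**Figure D3:**
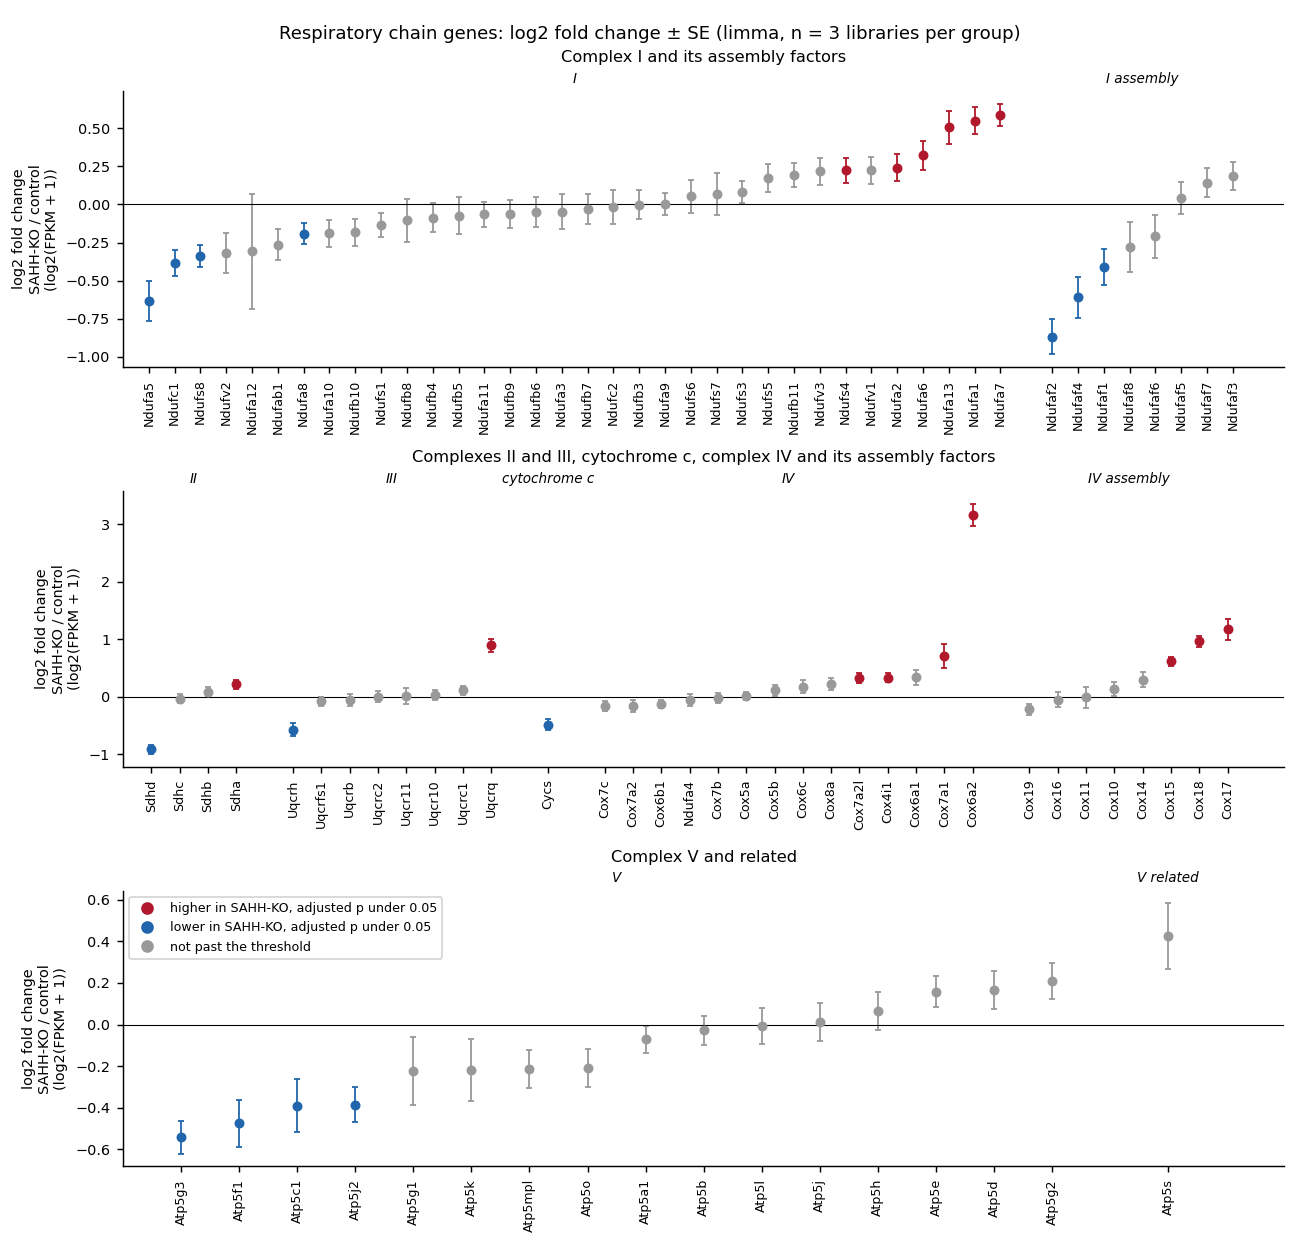
Points give the log2 fold change of SAHH-KO over control on the log2(FPKM + 1) scale for 94 of the 95 tested genes, with bars of ± 1 SE, sorted within each complex; the 3 panels have different vertical scales. Red points are higher and blue points lower in SAHH-KO at an adjusted p under 0.05, grey points did not pass, and Cox6a2 at 3.16 stands above all others.

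Of the 8 complex I assembly factors, 3 (37.5%) were lower in SAHH-KO and 0 higher. Of all tested genes 26.8% were lower. The summed level of the 8 factors was 53.2 ± 1.57 FPKM in SAHH-KO and 64.2 ± 6.43 FPKM in control. Ndufaf2, a chaperone that holds the place later taken by Ndufa12, had 1.07, 0.993 and 1.35 FPKM in SAHH-KO, against 2.63, 3.38 and 2.72 FPKM in control. It was low in all libraries, with 160 reads over the SAHH-KO libraries and 441 over the control libraries, and the groups were apart (-0.87 ± 0.116, adjusted p = 0.000389). Of its exon bases 65.7% overlap B230220B15Rik, a non-coding RNA on the opposite strand, and the sources used here do not say whether counting used strand. Ndufaf4 had 5.47, 6.55 and 6.01 FPKM in SAHH-KO, against 7.82, 11.7 and 9.86 FPKM in control (-0.61 ± 0.137, adjusted p = 0.00582). Ndufaf1, which acts with Ecsit on the membrane arm, had 9.61, 9.02 and 10.6 FPKM in SAHH-KO, against 11.1, 14.4 and 14.7 FPKM in control (-0.41 ± 0.119, adjusted p = 0.0184). It lost the call in 5 of 14 alternatives, among them without SAHH-KO replicate 1 or 2 and without control replicate 2 or 3.

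Complex II, succinate dehydrogenase, has only 4 subunits, and they differed among themselves. Sdhd, the smaller of the membrane anchors that hold the ubiquinone site, had 54.7, 63.4 and 61.8 FPKM in SAHH-KO, against 118, 114 and 110 FPKM in control. Every SAHH-KO library was far below every control library, and the call held in all 14 alternatives (-0.92 ± 0.0817, adjusted p = 4.47e-05). Sdhc, its partner in the membrane, had 36.2, 38.2 and 38.7 FPKM in SAHH-KO, against 35.6, 39.4 and 40.7 FPKM in control, and the groups overlapped (-0.03, 95% interval -0.22 to 0.15). Sdhb, the iron-sulphur subunit, had 55.1, 54.6 and 51.6 FPKM in SAHH-KO, against 47.0, 52.0 and 53.0 FPKM in control, which overlapped too (0.08, 95% interval -0.10 to 0.26). Sdha, the flavoprotein that oxidises succinate, had 73.5, 71.8 and 69.3 FPKM in SAHH-KO, against 66.1, 59.6 and 59.1 FPKM in control. Its libraries did not overlap, but the call (0.21 ± 0.0769, adjusted p = 0.0439) was lost in 9 of 14 alternatives. Per length, Sdhd made up 26.9 ± 1.70% of the summed complex II level in SAHH-KO and 43.0 ± 1.16% in control.

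Sdhd lies at chr9:50596357-50603812 on the minus strand of GRCm38, head to head with Timm8b, whose start is 98 bases away and which encodes a chaperone of mitochondrial protein import. Timm8b averaged 37.8 ± 0.530 FPKM in SAHH-KO and 53.9 ± 4.83 FPKM in control (-0.50 ± 0.0849, adjusted p = 0.00147). Nkapd1, beyond Timm8b and 1428 bases from the start of Sdhd, was lower as well (-0.54 ± 0.154, adjusted p = 0.0177), and so was Dlat at 30821 bases (-0.23, adjusted p = 0.0360). Il18, 14517 bases from Sdhd, was higher, with 20.4 ± 1.77 FPKM in SAHH-KO and 1.76 ± 0.655 FPKM in control. The region around the start of Sdhd, which includes the start of Timm8b, is shown with that of Sdhb, since a gene that was lower and a partner that was not called can be read side by side. Each sequence runs 5′ to 3′ on the gene's own strand, from 250 bases before the start to 50 bases after it, and comes from RefSeq (GRCm38.p6). Capitals mark matches on either strand to the motif cores GCGCATGC of NRF1, CCGGAAG of ETS factors such as GABP, and GGGCGG of SP1.
Sdhd, chr9:50603800-50604099, minus strand: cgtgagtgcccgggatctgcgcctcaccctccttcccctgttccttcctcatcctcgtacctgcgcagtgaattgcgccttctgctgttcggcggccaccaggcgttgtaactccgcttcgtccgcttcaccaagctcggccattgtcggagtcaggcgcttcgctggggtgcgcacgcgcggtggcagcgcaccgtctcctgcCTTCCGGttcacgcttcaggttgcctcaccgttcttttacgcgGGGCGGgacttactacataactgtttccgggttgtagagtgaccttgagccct
Sdhb, chr4:140961021-140961320, plus strand: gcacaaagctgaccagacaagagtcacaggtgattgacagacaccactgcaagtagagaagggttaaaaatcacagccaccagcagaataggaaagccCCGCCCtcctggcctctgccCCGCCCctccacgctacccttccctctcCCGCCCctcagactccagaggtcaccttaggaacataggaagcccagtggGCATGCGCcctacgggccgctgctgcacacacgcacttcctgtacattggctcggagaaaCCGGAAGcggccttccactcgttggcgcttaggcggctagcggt
The Sdhd window holds 1 ETS core and 1 SP1 core, and the Sdhb window 1 NRF1 core, 1 ETS core and 3 SP1 cores. The window of Sdha, which was called higher, holds none of these motif cores. A link between the cores and the differences was not tested.

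Complex III had all 8 subunit genes tested, and the group held 1 strong difference in each direction. Uqcrq, a small subunit near the ubiquinone sites, had 105, 99.0 and 103 FPKM in SAHH-KO, against 57.3, 45.3 and 62.2 FPKM in control. All SAHH-KO libraries were close together and above the more spread control libraries (0.90 ± 0.116, adjusted p = 0.00033). Uqcrh, the acidic hinge protein that helps cytochrome c1 meet cytochrome c, had 50.5, 66.3 and 58.4 FPKM in SAHH-KO, against 82.2, 91.0 and 87.0 FPKM in control. These groups did not overlap either (-0.57 ± 0.106, adjusted p = 0.0023). The other 6 genes, among them the core proteins Uqcrc1 and Uqcrc2 and the Rieske iron-sulphur protein Uqcrfs1, had log2 fold changes between -0.08 and 0.11 and were not called. Per length, the highest level among these 8 genes was that of Uqcrq in SAHH-KO, at a mean of 102 FPKM, and that of Uqcrh in control, at 86.7 FPKM.

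Cytochrome c is the mobile carrier between complexes III and IV. Cycs had 34.6, 38.4 and 36.2 FPKM in SAHH-KO, against 45.9, 50.6 and 57.7 FPKM in control. It was lower in every SAHH-KO library (-0.48 ± 0.098, adjusted p = 0.00359). Processed copies of Cycs are common in the genome, and 26.2% of its 50-base words occur in another annotated gene, most of them in Gm10053, so its level is uncertain where reads fell in such words.

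Complex IV, cytochrome c oxidase, had 14 of 20 genes tested, and 4 were higher and 0 lower in SAHH-KO. The share called higher was 28.6%, near the 26.4% of all tested genes. Of the 11 subunits used in most tissues, Cox4i1 alone was called. It had 312, 304 and 308 FPKM in SAHH-KO, against 249, 228 and 257 FPKM in control (0.33 ± 0.0742, adjusted p = 0.00582). The groups were apart, but the call was lost under TPM and under assigned-read scaling. Cox6a1, with the highest level among the nuclear complex IV genes, had 352, 317 and 349 FPKM in SAHH-KO, against 304, 214 and 295 FPKM in control. Control replicate 2 was much the lowest, and the gene did not pass (0.34 ± 0.134, adjusted p = 0.0611). It passed with limma-voom on the reads worked out from the FPKM (adjusted p = 0.0335) and without control replicate 1 (0.43, adjusted p = 0.0286). Without control replicate 2 it did not pass (0.18, adjusted p = 0.083). Nor did it under TPM (0.18, adjusted p = 0.298) or assigned-read scaling (0.18, adjusted p = 0.290). Cox8a had 277, 280 and 283 FPKM in SAHH-KO, against 268, 205 and 250 FPKM in control (0.22 ± 0.103, adjusted p = 0.101). The other 8, Cox5a, Cox5b, Cox6b1, Cox6c, Cox7a2, Cox7b, Cox7c and Ndufa4, had log2 fold changes between -0.17 and 0.17.

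The isoforms that are restricted to certain tissues held the largest difference of the whole set. Cox6a2, the heart and skeletal muscle partner of Cox6a1, had 70.7, 38.9 and 53.1 FPKM in SAHH-KO, against 5.80, 4.94 and 4.36 FPKM in control. The lowest SAHH-KO library was several times the highest control library, although the SAHH-KO libraries varied widely among themselves (3.16 ± 0.196, adjusted p = 6.32e-06). The gene lies at chr7:128205435-128206387 on the minus strand of GRCm38. Of its exon bases 10.3% overlap Itgad on the opposite strand, whose level was at most 0.0146 FPKM in any library. Cox6a2 made up 16.7, 10.9 and 13.2% of the summed Cox6a1 and Cox6a2 level in SAHH-KO, against 1.87, 2.25 and 1.45% in control.

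The other muscle isoform that reached the filter, Cox7a1, had 1.91, 1.47 and 2.79 FPKM in SAHH-KO, against 1.34, 0.456 and 0.836 FPKM in control. It rested on 52 reads over the SAHH-KO libraries and 24 over the control libraries (0.71 ± 0.206, adjusted p = 0.0192). The call was lost in 4 of the 13 alternatives that tested it, among them without SAHH-KO replicate 3 and without control replicate 2 or 3. Its counterpart Cox7a2 had 73.4, 91.7 and 83.3 FPKM in SAHH-KO, against 84.1, 102 and 91.2 FPKM in control, and was not called. Cox7a2l, which joins complexes III and IV in supercomplexes, had 171, 158 and 148 FPKM in SAHH-KO, against 115, 135 and 130 FPKM in control. It was higher (0.33 ± 0.0911, adjusted p = 0.0164), but not under TPM, assigned-read scaling or without SAHH-KO replicate 1.

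Isoforms known for induction at low oxygen stayed below the filter. Cox4i2 had 0.305, 0.584 and 0.330 FPKM in SAHH-KO, against 0.227, 0.0774 and 0.213 FPKM in control, from 15 reads over the SAHH-KO libraries and 7 over the control libraries. Ndufa4l2 had 0.494, 0.360 and 0.178 FPKM in SAHH-KO, against 0.109, 0 and 0.153 FPKM in control. Neither was tested. Cox6b2, Cox7b2, Cox8b and Cox8c, found mainly in testis or muscle, were listed at 0 in all 6 libraries, so that Cox6b1, at 149 FPKM in SAHH-KO and 162 FPKM in control, and Cox8a had no detected isoform partner.

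Of the 9 complex IV assembly factors, 8 were tested, and 3 (37.5%) were higher and 0 lower in SAHH-KO, with 5 called without control replicate 1. Of all tested genes 26.4% were higher. The summed level of the 9 factors was 120 ± 8.27 FPKM in SAHH-KO and 91.7 ± 9.23 FPKM in control, a ratio of 1.31. Cox17, a copper chaperone of the intermembrane space, had 4.62, 4.02 and 4.25 FPKM in SAHH-KO, against 0.807, 2.11 and 1.30 FPKM in control. Every SAHH-KO library was above the highest control library, replicate 2 (1.17 ± 0.181, adjusted p = 0.000863). Cox18, which inserts part of the mitochondrially encoded subunit Cox2 into the membrane, had 19.4, 17.8 and 16.3 FPKM in SAHH-KO, against 8.09, 9.39 and 8.50 FPKM in control. The groups were wide apart (0.96 ± 0.0945, adjusted p = 7.43e-05). Cox15, an enzyme of haem A synthesis, had 15.8, 15.8 and 15.7 FPKM in SAHH-KO, against 10.5, 9.87 and 9.50 FPKM in control (0.62 ± 0.0755, adjusted p = 0.000248). Cox10, which precedes Cox15 in haem A synthesis, averaged 10.6 ± 0.804 FPKM in SAHH-KO and 9.61 ± 1.61 FPKM in control and was not called. The copper factors Cox11 and Cox19 were not called either, with log2 fold changes of -0.01 and -0.22, and nor were Cox14 at 0.30 and Cox16 at -0.05. Cox20 stayed below the filter.

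**Figure D4:**
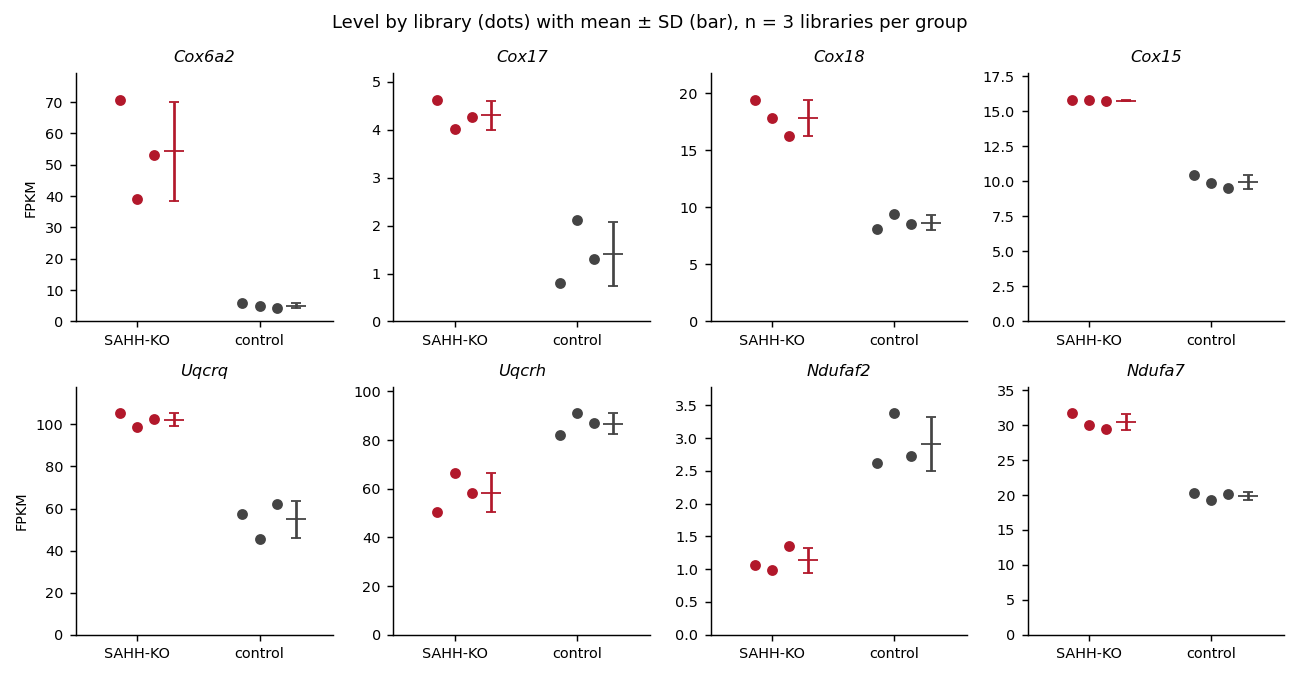
Dots give the FPKM of each library for 8 genes of complexes I, III and IV and their assembly factors, SAHH-KO in red on the left and control in grey on the right of each panel, with mean ± SD as bars (n = 3 libraries per group); each vertical axis starts at 0. The groups do not overlap in any panel, with Uqcrh and Ndufaf2 lower and the other 6 genes higher in SAHH-KO.

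Complex V, the ATP synthase, had 16 of 17 rows tested, and 4 were lower and 0 higher in SAHH-KO; the row not tested was a second entry for Atp5o, listed at 0. Without control replicate 1, 8 were called. The most abundant genes, Atp5b and Atp5a1, encode the catalytic head. Atp5b had 341, 345 and 338 FPKM in SAHH-KO, against 352, 334 and 360 FPKM in control, and Atp5a1 averaged 323 ± 1.73 FPKM in SAHH-KO and 339 ± 6.37 FPKM in control. Neither was called, and the 95% intervals of their log2 fold changes were -0.18 to 0.13 and -0.22 to 0.08. Atp5c1, the rotating shaft, had 82.0, 79.3 and 74.1 FPKM in SAHH-KO, against 84.6, 122 and 106 FPKM in control. The nearest libraries almost touched, and the call (-0.39 ± 0.128, adjusted p = 0.0313) was lost in 6 of 14 alternatives, among them without any 1 of the SAHH-KO replicates and without control replicate 2 or 3.

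In the stalk and membrane part of complex V, 2 of 8 tested genes were lower. Atp5f1, subunit b of the outer stalk, had 54.5, 57.9 and 58.0 FPKM in SAHH-KO, against 66.6, 90.6 and 82.5 FPKM in control (-0.47 ± 0.114, adjusted p = 0.00805). Atp5j2, a small membrane subunit, had 17.84, 19.89 and 19.97 FPKM in SAHH-KO, against 26.46, 23.87 and 25.89 FPKM in control (-0.38 ± 0.0831, adjusted p = 0.00491). Both were lower in every SAHH-KO library. Atp5s, a factor related to complex V, averaged 1.56 ± 0.475 FPKM in SAHH-KO and 0.900 ± 0.260 FPKM in control and did not pass (0.42 ± 0.159, adjusted p = 0.0509).

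The c-ring of complex V is built from 1 mature protein that 3 genes encode with different import sequences. Atp5g3 had 69.2, 78.8 and 71.3 FPKM in SAHH-KO, against 103, 106 and 112 FPKM in control. It was lower in every SAHH-KO library (-0.54 ± 0.0801, adjusted p = 0.000687). Atp5g2 had 74.5, 72.0 and 65.7 FPKM in SAHH-KO, against 64.8, 56.4 and 61.7 FPKM in control, and did not pass (0.21 ± 0.0858, adjusted p = 0.0676) except without control replicate 1 (0.26, adjusted p = 0.0332). Atp5g1 had 10.4, 9.63 and 8.66 FPKM in SAHH-KO, against 14.4, 8.47 and 11.7 FPKM in control, with overlap (-0.22 ± 0.165, adjusted p = 0.286); it was lower without control replicate 2 (-0.41, adjusted p = 0.0217). Atp5g3 made up 47.7 ± 2.36% of the summed c-ring level in SAHH-KO and 59.6 ± 2.87% in control, and Atp5g2 46.1 ± 1.94% in SAHH-KO and 34.0 ± 1.45% in control. The summed level was 153 ± 7.43 FPKM in SAHH-KO and 179 ± 7.42 FPKM in control. The start regions of the pair that gives most of the transcript are shown, with the same window, source and capitals as for Sdhd. The window of Atp5g3 spans the 5′ end of its gene row, at 73911326. That of Atp5g2 lies inside its gene row, whose 5′ end is at 102672352, so the 2 windows are not fully alike.
Atp5g3, chr2:73911277-73911576, minus strand: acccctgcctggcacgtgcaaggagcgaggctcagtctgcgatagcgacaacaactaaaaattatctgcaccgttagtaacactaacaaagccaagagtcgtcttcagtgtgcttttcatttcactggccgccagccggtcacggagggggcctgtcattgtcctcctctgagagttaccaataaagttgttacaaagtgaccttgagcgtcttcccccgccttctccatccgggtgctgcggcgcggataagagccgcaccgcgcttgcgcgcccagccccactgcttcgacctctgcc
Atp5g2, chr15:102670998-102671297, minus strand: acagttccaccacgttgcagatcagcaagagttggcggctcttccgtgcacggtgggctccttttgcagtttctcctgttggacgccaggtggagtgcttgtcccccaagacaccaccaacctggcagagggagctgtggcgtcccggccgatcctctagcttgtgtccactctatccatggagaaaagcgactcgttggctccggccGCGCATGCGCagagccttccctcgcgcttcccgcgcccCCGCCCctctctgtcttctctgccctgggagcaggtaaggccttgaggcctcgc
The Atp5g3 window holds none of the 3 motif cores, and the Atp5g2 window holds 1 SP1 core and a palindromic stretch in which 2 NRF1 cores overlap. The window of Atp5g1, which like Atp5g2 was not called, also holds none of the 3.

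**Figure D5:**
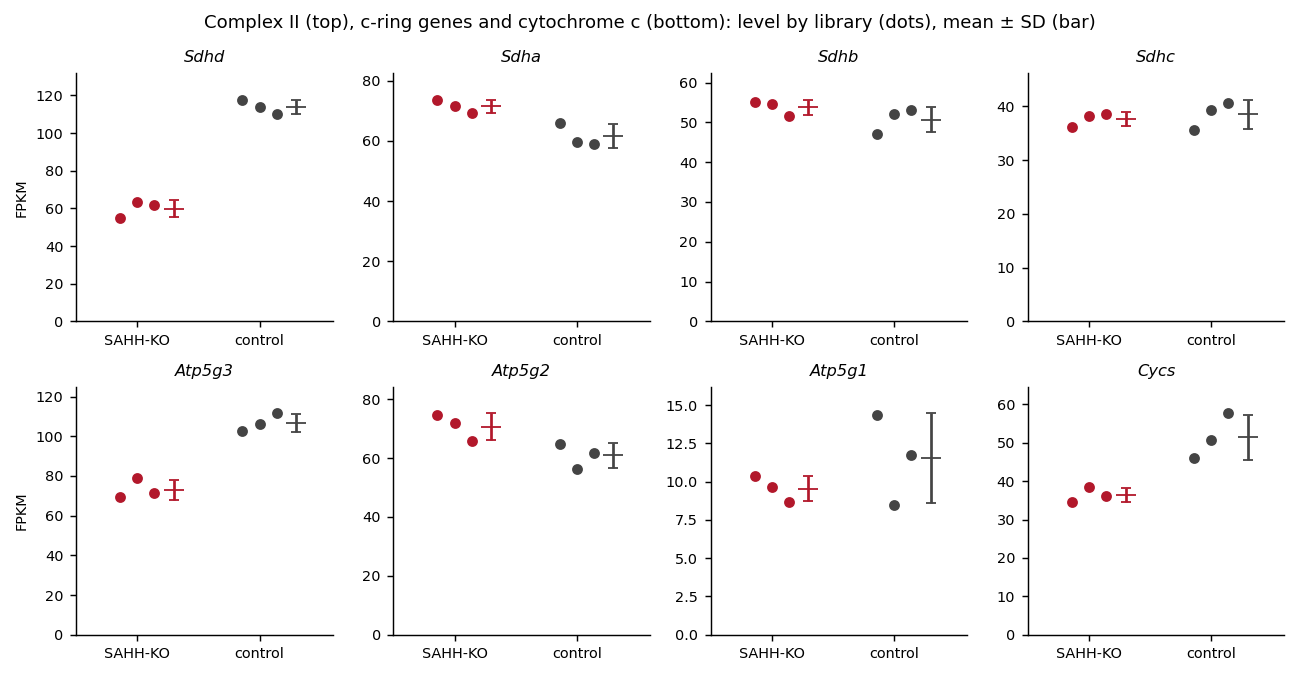
Dots give the FPKM of each library for the 4 complex II genes (top) and the 3 c-ring genes and Cycs (bottom), SAHH-KO in red on the left and control in grey on the right, with mean ± SD as bars (n = 3 libraries per group); each vertical axis starts at 0. Sdhd, Atp5g3 and Cycs are lower in every SAHH-KO library, Sdhb, Sdhc and Atp5g1 overlap between the groups, and the SAHH-KO libraries of Sdha and Atp5g2 lie just above those of control.

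A start region was found in RefSeq for 84 of the 103 member symbols, 79 of them tested. Members and tested genes were counted by gene, with a match in any window of the gene, and the share of all windows by window. The NRF1 core stood in 13 of these 79 genes, or 16.5%, against 6.72% of 7649 tested genes and 2.71% of all 32851 windows. The ETS core stood in 22, or 27.8%, against 23.3% of tested genes and 8.86% of all windows. The SP1 core stood in 38, or 48.1%, against 70.4% of tested genes and 35.7% of all windows. NRF1 and GABP are known activators of respiratory chain genes. A match is a description of these letters only.

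The members were short and abundant genes. The median gene length was 1756 bases over the 95 tested members and 4000.5 bases over all tested genes, and the median level was 34.9 FPKM over the members and 7.83 FPKM over all tested genes. Across the 95 members, Spearman's rho with the log2 fold change was -0.10 for gene length and 0.08 for level, a description over genes that share the same 6 libraries. The median coefficient of variation between replicates was 5.34% in SAHH-KO and 9.70% in control over the members, and 7.44% in SAHH-KO and 11.2% in control over all tested genes. The lowest control library was replicate 1 for 41, replicate 2 for 47 and replicate 3 for 7 of the 95 members, and over all 10362 tested genes it was replicate 1 for 4077, replicate 2 for 3836 and replicate 3 for 2449. Of the 30 called members, 5 share at least 25% of their 50-base words with another gene or at least 10% of their exon bases, namely Cox6a2, Ndufaf2 and Cycs, described above, Ndufa2, and Ndufa13, whose exons overlap Tssk6.

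Among genes of the chain that the name rule does not take, 1 of 8 tested subunits was higher and 3 were lower. Cyc1, cytochrome c1 of complex III, averaged 73.2 ± 1.17 FPKM in SAHH-KO and 86.9 ± 5.08 FPKM in control (-0.24 ± 0.0746, adjusted p = 0.0246). Of 31 assembly factors outside the rule, 2 were higher and 9 lower. Foxred1, for complex I, averaged 8.18 ± 0.604 FPKM in SAHH-KO and 3.79 ± 0.126 FPKM in control (0.94 ± 0.0857, adjusted p = 5.19e-05), and Coa5, for complex IV, was also higher. Cmc2, a small complex IV biogenesis protein, averaged 2.87 ± 0.638 FPKM in SAHH-KO and 7.88 ± 0.387 FPKM in control (-1.21 ± 0.122, adjusted p = 8.74e-05). Tmem186, for complex I, and Coa3, for complex IV, were lower as well, so that complex IV assembly factors lay on both sides once those with other names were counted.

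Of 14 tested regulators of mitochondrial genes, 2 were higher and 3 lower. Esrra, the nuclear receptor ERRα, had a mean of 45.2 ± 3.56 FPKM in SAHH-KO and 27.2 ± 5.96 FPKM in control (0.73 ± 0.149, adjusted p = 0.00359). The GABP subunit genes went apart, with Gabpb1 higher (0.33) and Gabpb2 lower (-0.69), and the mitochondrial helicase Twnk and transcription factor Tfb2m were lower. Ppargc1a, the coactivator PGC-1α, was listed at 0 in all 6 libraries. Of 12 tested genes of ubiquinone synthesis, 4 were higher, among them Coq2 (0.71), Coq8b (0.57) and Coq9 (0.52), and 3 were lower, Coq7 (-0.57), Coq4 (-0.44) and Pdss1 (-0.34).

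The other enzymes that feed electrons to ubiquinone had 2 of 6 tested genes higher, Sqor (0.67), which oxidises sulphide, and Gpd2 (0.52), which oxidises glycerol 3-phosphate. Dhodh (-0.37) and Etfdh (-0.29) were lower. Of 7 tested carriers and pores that move ADP, ATP, phosphate or protons, 1 was higher and 5 were lower. Among all tested genes 26.4% were higher and 26.8% lower. The uncoupling protein gene Ucp2 averaged 99.8 ± 0.209 FPKM in SAHH-KO and 62.7 ± 5.98 FPKM in control (0.67 ± 0.0848, adjusted p = 0.000307). The pores Vdac1 (-0.42) and Vdac2 (-0.50) and the ADP/ATP carrier Slc25a4 (-0.40) had the smallest p among those lower.

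The 13 subunits encoded in mitochondrial DNA summed to 13765 to 14176 FPKM in SAHH-KO and 11147 to 18170 FPKM in control, so that the SAHH-KO libraries lay inside the spread of the control libraries. Of these genes mt-Nd3 alone was called, at 12.0 ± 2.90 FPKM in SAHH-KO and 19.5 ± 6.34 FPKM in control (-0.65 ± 0.229, adjusted p = 0.0418). Over all 91 tested genes of the lists outside the name rule, 12 were higher and 26 lower, or 13.2% and 28.6%, against 26.4% higher and 26.8% lower of all tested genes, and without SAHH-KO replicate 1 there were 17 lower.

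Around 11 of the called members, 17 protein-coding genes within 50000 bases were tested. Of these, 8 were called in the direction of the member, 3 in the opposite direction and 6 were not called. Among all tested genes 53.3% were called, 26.4% as higher and 26.8% as lower, so such counts around members are not read as shared control. Rps28, a ribosomal protein gene 29 bases from Ndufa7, was higher, with 128 ± 13.4 FPKM in SAHH-KO and 79.1 ± 16.8 FPKM in control (0.70 ± 0.152, adjusted p = 0.00493). Aff4, 6092 bases from Uqcrq, was higher (0.49 ± 0.0897, adjusted p = 0.00216), and so was Ankrd17, 3165 bases from Cox18 (0.67 ± 0.085, adjusted p = 0.000296). Cox15 overlaps a pair of genes on the opposite strand, of which Cutc was higher (0.53 ± 0.112) and Entpd7 lower (-0.54 ± 0.0973). Around Ndufa7, Kifc1 at 37350 bases was lower (-1.12, adjusted p = 0.000427) and Cd320 was not called. Pla1a, 43354 bases from Cox17, was higher (0.94, adjusted p = 0.000141). Smim15 and Ercc8 at Ndufaf2, 9130023H24Rik and Armc5 near Cox6a2 and Atf2 near Atp5g3 were not called.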

How the data were processed

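Gene expression was measured by bulk RNA-seq in 3 SAHH-KO and 3 control libraries, each built with a SMARTer kit out of 1.3 µg RNA, per the labels' protocols. The deposited values are FPKM per gene made by the authors, for whom the submitters' processing notes name FastQC, Trim Galore, STAR and featureCounts with the builds GRCm38 and mm10; versions, strand setting and scaling are not given in the sources used here. FPKM times gene length came out as whole multiples of 1 read in 100% of values within 0.01 of a read, which gave the assigned reads. The worth of 3 reads covers counting error only, as there are no molecular identifiers.

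From the authors' FPKM, log2(FPKM + 1) was tested with limma 3.58.1 in R 4.3.3 (eBayes with trend), group as the only term, two-sided, on 10362 genes with at least 1 FPKM in at least 3 of 6 libraries. All adjusted p-values are Benjamini-Hochberg values from limma over all tested genes, with a threshold of 0.05. The procedure was run on simulated data with 200 changed genes and known library sizes. That setting has far fewer changed genes than were called here and does not bear on the choice of scaling. Had the table held counts, another test was planned. The 14 alternatives were pseudocounts of 0.1 and 5, no filter, a filter of 5 FPKM, TPM, scaling to assigned reads, limma-voom on the recovered reads, a replicate block, and leaving out each library.

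The members and the gene lists were chosen with earlier results of these data known, and so support nothing by themselves. Genes named with their values are Ahcy, the up to 4 higher and 4 lower called members of each complex with the smallest p, all complex II and c-ring genes, Cycs, the complex IV isoforms and up to 3 called genes of each list in each direction; other members and the neighbours were named after their values were seen. All 104 members are in GENCODE M21, 98 of them with equal coordinates. Sharing with other genes was counted over 50-base words and exon bases of M21. Neighbours are genes within 50000 bases. Values of 1 tested member are not reported here.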

Additional observations from a re-analysis of the deposited data

How the results depend on the processing

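Of the 30 called members, 19 kept their call in every alternative that tested them, 8 higher and 11 lower, and 11 lost it in at least 1; no called member changed direction. Scaling moved the balance most: against 16 higher and 14 lower members, TPM gave 9 and 28 and assigned reads gave 9 and 29. Under both, complex V had 8 called genes instead of 4, and the lists outside the name rule had 40 lower genes instead of 26. Complex II had 1 called gene instead of 2 without a filter, under TPM, under assigned reads and under the replicate block. The log2 fold change of Sdhb, never called, was 0.0846 and became -0.0761 under TPM and -0.0732 under assigned reads, and that of Sdhc, also never called, ranged from -0.086 to 0.0091 when 1 library was left out, above 0 only without control replicate 3; the cause was not tested. Limma-voom on the recovered reads called 55.5% of tested genes and 31 members.

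Leaving out 1 library at a time gave 10 to 20 higher and 11 to 19 lower members. The lowest count of higher members came without SAHH-KO replicate 1 and the highest counts in both directions came without control replicate 1. Called genes ranged from 7 to 12 in complex I, 2 to 3 in its assembly factors, 1 to 2 in complex II, 2 to 2 in complex III, 3 to 6 in complex IV, 3 to 5 in its assembly factors and 3 to 8 in complex V, the 5 and the 8 again without control replicate 1. The lists outside the rule ranged from 9 to 13 higher and 17 to 29 lower, the 17 without SAHH-KO replicate 1, and Ahcy from -1.96 to -1.86.

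The groups share replicate numbers, but the deviations of equally numbered libraries correlated at 0.0955, 0.101 and -0.0056, so the numbers were not taken as pairs; SAHH-KO replicate 3 did not correlate best with its own number. With the replicate block, 5490 genes were called against 5518, and 31 members against 30; Cox6a1 passed with it (adjusted p = 0.0227). With 3 libraries per group, the limma spread is shared across genes, and members below the filter are described by reads only.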
